A study of Homo sapiens with 6 samples.

Results

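The genes examined here are 10 genes of ferritin and cellular iron handling, taken by name: FTL, FTH1, TFRC, SLC40A1, SLC11A2, IREB2, ACO1, NCOA4, HMOX1 and PCBP1. They are 10 of the 35583 genes that had a transcript in the deposited tables. All 10 passed the filter on low counts and were among the 15224 genes tested. The libraries are stranded messenger RNA libraries of Rh30, a human cell line of alveolar rhabdomyosarcoma, and all samples share its PAX3-FOXO1 fusion. There were 3 control libraries and 3 libraries of cells with DDX5, a DEAD-box RNA helicase, knocked down (siDDX5), each group labelled replicates 1 to 3. The labels do not say what the control cells received, which or how many siRNAs were used, or for how long, and all samples come from a single line. Nothing in the labels of single samples says that replicates were separate cultures, although the series' design text calls them biological, so p-values measure the spread between these libraries. The set was selected on the expression difference between control and siDDX5 cells in these same libraries. The values are therefore a description of these libraries, and where an adjusted p is printed for one of them it gives its place in the fit over all genes and is no independent evidence.

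Cells store surplus iron inside ferritin, a hollow shell built from light chains (FTL) and heavy chains (FTH1), and take it up through the transferrin receptor (TFRC). The iron regulatory proteins, encoded by ACO1 and IREB2, bind hairpins in messenger RNA called iron-responsive elements when iron is scarce. Binding in a 5′ UTR blocks translation, as for ferritin and the exporter ferroportin (SLC40A1), and binding in a 3′ UTR protects the transcript, as for TFRC and one form of the metal transporter SLC11A2.

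The hairpins were looked for in the GENCODE release 29 transcripts (GRCh38) of the 10 genes, as a C, any 5 bases, the loop CAGTGN, and then 5 bases that pair with the first 5, G-T pairs allowed. They are shown because they are what the ferritin, uptake and export genes share beyond their names. Each is printed 5′ to 3′ on the strand of the transcript as a 30-base window, with the 6 loop bases CAGTGN in capitals. The search covered the transcript strand alone. A match is a description and not a tested site.
FTL, 5′ UTR, chr19:48965335-48965364, plus strand: ctcttgcttcaaCAGTGTttggacggaaca
FTH1, 5′ UTR, chr11:61967573-61967602, minus strand: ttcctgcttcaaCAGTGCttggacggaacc
SLC40A1, 5′ UTR, chr2:189580660-189580689, minus strand: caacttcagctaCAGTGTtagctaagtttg
TFRC, 3′ UTR, chr3:196050978-196051007, minus strand: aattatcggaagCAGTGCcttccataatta
TFRC, 3′ UTR, chr3:196050574-196050603, minus strand: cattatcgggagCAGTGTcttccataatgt
SLC11A2, 3′ UTR, chr12:50988268-50988297, minus strand: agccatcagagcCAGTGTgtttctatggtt

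The FTL and FTH1 windows were identical at 26 of 30 bases. Counted from 1 at the 5′ end, with the FTL base first, they differed by C1T, T4C, T18C and A30C, of which T18C is the last base of the loop. TFRC held 4 matches in its 3′ UTR, 2 of them shown. The SLC11A2 element has 1 unpaired base in its second arm, and so does a match in the 3′ UTR of IREB2 (chr15:78500969-78500998). Fully paired matches lay in an annotated UTR of 201 of 19903 protein-coding genes (1.01%), and matches of either form in 535 (2.69%). No match was found in an annotated UTR of ACO1, NCOA4, HMOX1 or PCBP1.

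The libraries held 18202402 to 26156858 estimated counts, and each siDDX5 library was shallower than each control library. Values per library are given in the order of replicates 1, 2 and 3 throughout. CPM are estimated counts relative to the library total, as scaled by edgeR's TMM method, and they serve for differences. Adjusted p are Benjamini-Hochberg values over all 15224 genes, called under 0.05. A block is a term for the replicate number, which pairs same-numbered libraries. A count of 3 was worth 0.115 to 0.165 CPM. DDX5 itself stood at 1352, 1434 and 1137 CPM in control cells, against 549.5, 504.5 and 395.9 CPM in siDDX5 cells, where it fell by 1.44 on the log2 scale (SE 0.15, adjusted p 0.0106 by edgeR). DDX5 kept this direction in all 15 alternatives and its call in 9. The call was lost without control replicate 1, siDDX5 replicate 1 or siDDX5 replicate 2 (adjusted p up to 0.0953), with length-scaled TPM counts and with both limma settings. All 7 markers of rhabdomyosarcoma looked for, MYOD1, MYOG and DES among them, reached at least 1 TPM, with DES between 400.64 and 588.72 TPM. The 4 erythroid markers summed to 1.28 to 1.83 TPM over all libraries, with HBB at 0 in each. The 4 hepatocyte markers summed to 3.22 to 5.23 TPM. The epithelial markers EPCAM and CDH1 summed to 0.74 to 1.15 TPM in the control and 1.19 to 1.42 TPM in the siDDX5 libraries, without overlap. They went opposite ways. CDH1 was at 0.48, 0.9 and 0.52 TPM in control and 1.21, 1.06 and 1.14 TPM in siDDX5 libraries. EPCAM was at 0.26, 0.25 and 0.34 TPM in control and 0.21, 0.13 and 0.15 TPM in siDDX5 libraries. The part of both in the results was not tested. All 4 macrophage markers (PTPRC, CD14, CD68, CD163) reached 1 TPM in some library and none was at 0 in all of them. Their sum was 23.18 to 28.07 TPM in the control and 16.64 to 22.59 TPM in the siDDX5 libraries, and its part in the ferritin values was not tested. Of the 4, CD68 did not overlap, at 14.88, 14.99 and 16.66 TPM in control and 10.22, 12.32 and 9.44 TPM in siDDX5 libraries. CD14 was at 0.52, 0.76 and 0.88 TPM in control and 1.47, 0.64 and 1.38 TPM in siDDX5 libraries, and CD163 was highest in siDDX5 replicate 1 (8.13 TPM). In bulk RNA, fewer cells of a type and less RNA per cell cannot be told apart.

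In these cells ferritin messenger RNA was the most abundant of the set. Levels are given as TPM, which is scaled for transcript length and can be compared between genes. In the control libraries FTH1 averaged 1808 ± 173 TPM and FTL 1782 ± 250 TPM (SD, n = 3 each), and their ranges overlapped. PCBP1 came next at 270.3 ± 7.92 TPM and TFRC at 153.7 ± 34.95 TPM. NCOA4 (67.5 ± 3.68 TPM), IREB2 (61.6 ± 1.59 TPM), SLC11A2 (53.7 ± 6.7 TPM) and HMOX1 (50.6 ± 30.6 TPM) followed. SLC11A2 overlapped HMOX1, and HMOX1 overlapped ACO1 (28.8 ± 0.81 TPM), while the other neighbours in this order did not overlap. SLC40A1 was the lowest at 2.94 ± 0.28 TPM. In the siDDX5 libraries the order of the first 4 was the same, but FTH1 and FTL no longer overlapped.

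**Figure D1:**
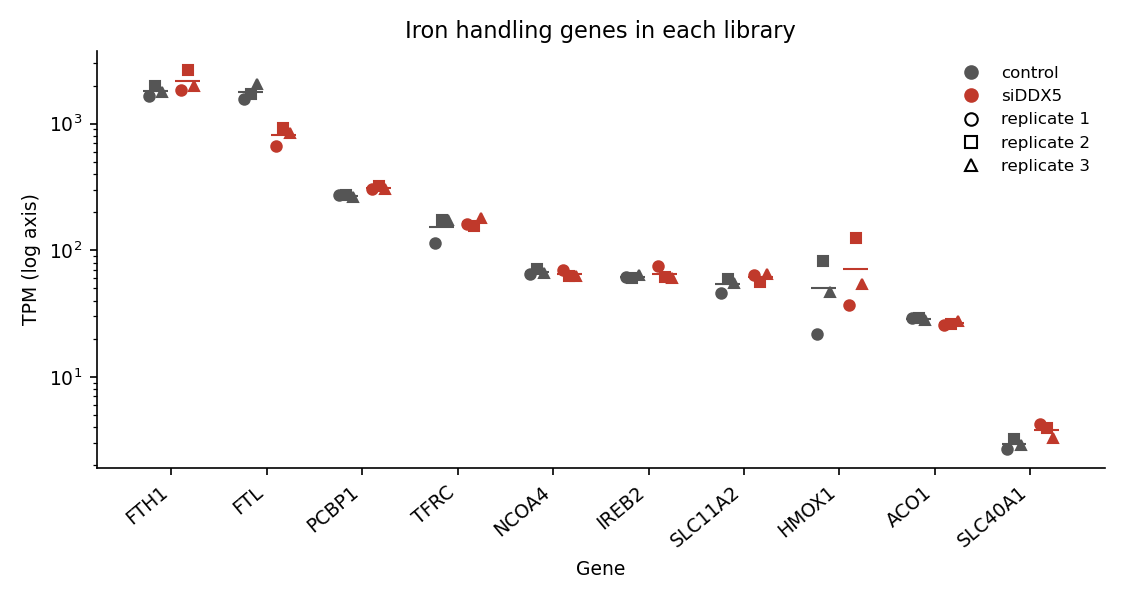
TPM of the 10 genes (log axis) in each of the 6 libraries, ordered by the control mean. Grey points are control and red points siDDX5 libraries, shapes are replicate numbers, and short lines are group means. FTL is at 1575 to 2059 TPM in control and 670.7 to 923.5 TPM in siDDX5 libraries.

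The messenger RNA of the ferritin light chain fell 2.16-fold, while that of the heavy chain did not pass the test. These libraries hold no measure of protein. FTL (ENSG00000087086.14, chromosome 19, 48965301 to 48966878, plus strand), whose protein helps form the iron core, stood at 1575, 1710 and 2059 TPM in control libraries. In siDDX5 libraries it stood at 670.7, 923.5 and 837.7 TPM. The groups did not overlap, and the highest siDDX5 library lay well under the lowest control library. On the CPM scale used for differences, FTL averaged 814 ± 94.5 in control and 377 ± 82.4 in siDDX5 libraries (SD, n = 3 each). The log2 fold change was -1.11 (SE 0.17) with an edgeR adjusted p of 0.0422. Within same-numbered pairs the log2 ratios of CPM were -1.32, -0.78 and -1.28 for replicates 1, 2 and 3. Leaving out any 1 of the 6 libraries kept the direction, with log2 fold changes from -1.28 to -0.96, but ended the call each time (adjusted p from 0.0549 to 0.164). The call was also lost with limma on log2 TPM (adjusted p 0.0807 and 0.0893 for pseudocounts of 1 and 0.1 TPM) and with length-scaled TPM counts in edgeR (0.0992).

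FTH1 (ENSG00000167996.15, chromosome 11, 61959718 to 61967660, minus strand) encodes the chain that oxidises iron as it enters the shell. It stood at 1657, 1997 and 1771 TPM in control libraries, and at 1833, 2669 and 1983 TPM in siDDX5 libraries. The groups overlapped, and siDDX5 replicate 2 was the highest library. The log2 fold change was 0.28 (SE 0.19), and it was 0.01 without siDDX5 replicate 2 and 0.43 without siDDX5 replicate 1.

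The balance of the messenger RNAs of both chains did not overlap between the groups. The ratio of FTH1 to FTL, in TPM, was 1.05, 1.17 and 0.86 in control libraries. It was 2.73, 2.89 and 2.37 in siDDX5 libraries. FTL made up 49.5% ± 3.87 of ferritin TPM in control and 27.4% ± 2.06 in siDDX5 cells (SD, n = 3 each). The sum of FTL and FTH1 overlapped between the groups, at 3590 ± 316 TPM in control and 2972 ± 560 TPM in siDDX5 cells, and siDDX5 replicate 2 reached 3593 TPM.

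**Figure D2:**
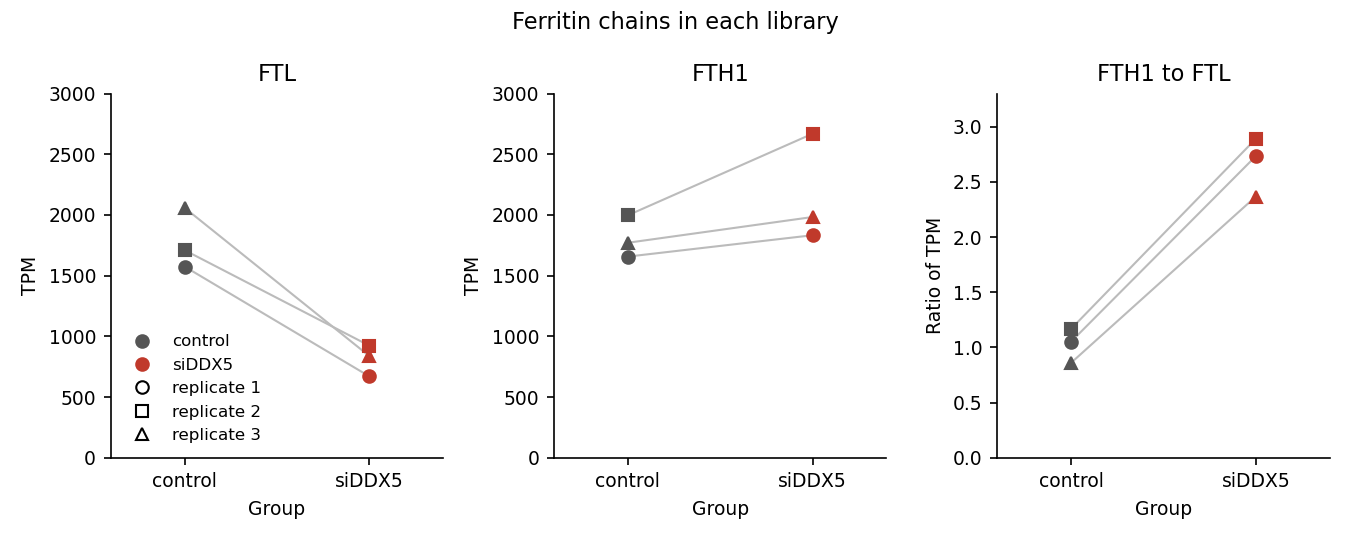
TPM of FTL and FTH1 and the ratio of FTH1 to FTL in control (grey) and siDDX5 (red) libraries, with grey lines joining same-numbered libraries. All 3 lines go down for FTL, and the ratio lies between 0.86 and 1.17 in control and between 2.37 and 2.89 in siDDX5 libraries.

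Ferritin genes have many processed pseudogenes that can take up reads of their parents. The tables held 16 FTLP and 25 FTH1P pseudogenes, and 20 of these 41 were at 0 in all 6 libraries. No pseudogene exceeded 21 estimated counts in a library. FTLP pseudogenes together took 0.0589% to 0.163% of the estimated counts of FTL and its pseudogenes, and FTH1P pseudogenes took 0.193% to 0.44% for FTH1. The highest were FTH1P3 (mean 3.18 TPM), FTH1P1 (2.18 TPM), FTLP6 (2.1 TPM), FTH1P16 (1.77 TPM), FTLP8 (1.51 TPM) and FTH1P4 (1.2 TPM). FTH1P3 was the only one of the 41 to pass the filter on low counts, with a log2 fold change of -0.18 (SE 0.35, adjusted p 0.891 by edgeR). Summing each parent with its pseudogenes left the FTH1 to FTL ratio 2.59 times as high in siDDX5 as in control cells, against 2.6 times without them. FTL was represented by 1 transcript in the tables, so its reads were not divided among isoforms. FTH1 had 12, of which ENST00000620041.4 held 85% ± 2.36 of the gene's counts in control and 86.6% ± 3.32 in siDDX5 cells (SD, n = 3 each).

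Of the 10 genes, 1 was called lower and 0 higher at an edgeR adjusted p under 0.05, against 0.112% of all genes tested called lower and 0.0525% called higher. When replicate numbers entered as a block, 1 was called lower and 2 higher, SLC11A2 and HMOX1, against 1.45% and 1.14% of all genes. Since the genes were proposed on this contrast, nothing is read from these shares. The CPM ranges of the groups did not overlap for 4 of the 10, against 18.0% of all genes tested, with FTL lower and SLC40A1, SLC11A2 and PCBP1 higher in siDDX5 cells. By direction, 9.16% of all genes were lower and 8.87% higher without overlap. The median log2 fold change of the 10 was 0.24, beside -0.002 over all genes tested.

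**Figure D3:**
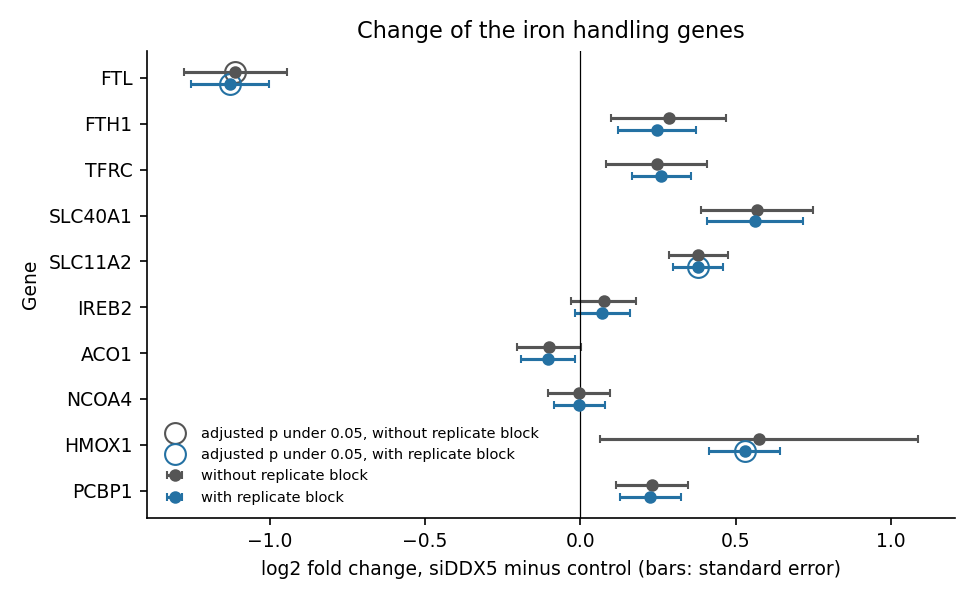
Log2 fold change (siDDX5 minus control) of each gene with its standard error, without (grey) and with (blue) the replicate number as a block; open circles mark an adjusted p under 0.05. FTL lies at -1.11 and -1.13, and the other 9 genes lie between -0.10 and 0.58.

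Among the uptake genes, the metal transporter rose in the fit with the block and the transferrin receptor did not pass. SLC11A2 (ENSG00000110911.15, chromosome 12, 50979401 to 51028566, minus strand) moves iron out of endosomes into the cytosol. It stood at 67.8, 73.1 and 70.1 CPM in control cells, against 90.2, 91.6 and 92.6 CPM in siDDX5 cells. The libraries of each group lay close together and the groups did not overlap. The log2 fold change was 0.38 (SE 0.10, adjusted p 0.177 by edgeR), and the value was again 0.38 in the blocked fit, where the adjusted p was 0.0464. DESeq2 without the block gave an adjusted p of 0.0258. Scaled for length the value was smaller, at 0.24 with length-scaled TPM counts (adjusted p 0.565 by edgeR). With limma on log2 TPM it was 0.19 and 0.20 (adjusted p 0.711 and 0.712) for pseudocounts of 1 and 0.1 TPM. Leaving out any 1 library gave no call in edgeR without the block (adjusted p from 0.245 to 0.473). On the TPM scale the groups overlapped, at 46.3, 59.3 and 55.6 TPM in the control and 63.2, 55.8 and 65.1 TPM in the siDDX5 group.

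SLC11A2 makes transcripts with and without the element, and these were read apart. Of its 34 transcripts in the tables, 9 contain the element shown above. They include ENST00000550782.5, annotated as a retained intron, at 2.37 to 3.24 TPM in control and 2.48 to 3.55 TPM in siDDX5 libraries. Also among them is ENST00000642227.1, annotated for nonsense-mediated decay. It was at 1.667, 1.111 and 0 TPM in control and 2.778, 2.955 and 1.396 TPM in siDDX5 libraries. Summed over these 9, the level was 22.4, 26.4 and 23 TPM in the control and 34.2, 30.9 and 32.6 TPM in the siDDX5 group, with no overlap. Summed over the transcripts without it, the level was 29.8 ± 5.1 TPM in control and 28.8 ± 3.84 TPM in siDDX5 cells (SD, n = 3 each), and the groups overlapped. The only transcript without it that held at least 5% of the gene's counts in a group mean was ENST00000644495.1, at 3.46 to 5.19 TPM. Most of that summed TPM therefore lay on transcripts that each held a smaller share of the counts. Transcripts with the element held 74.7% ± 4.24 of the gene's estimated counts in control and 81.4% ± 1.76 in siDDX5 cells (SD, n = 3 each), also without overlap. The most abundant of them, ENST00000262052.9, went from 58.8% ± 1.27 to 64.7% ± 0.925 of the counts. Its own log2 fold change was 0.55 (SE 0.10), and neither it nor any other of the 61172 transcripts tested passed an adjusted p of 0.05 in edgeR. There, 4333 had an unadjusted p under 0.05 without the block and 4878 with it. By edgeR's test of transcript usage, diffSpliceDGE, SLC11A2 was not called without or with the block. How often transcript shares do not overlap over all genes was not counted.

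TFRC (ENSG00000072274.12, chromosome 3, 196027183 to 196082189, minus strand) encodes the receptor that brings transferrin-bound iron into the cell. It stood at 224, 308.8 and 344.1 CPM in control cells, against 300.9, 356.4 and 382.2 CPM in siDDX5 cells. The groups overlapped, and replicate 1 was the lowest library in each. For TFRC the log2 fold change was 0.25 (SE 0.16), and it was 0.09 without control replicate 1 and 0.38 without control replicate 3. Transcripts with the 3′ UTR elements held 97.2% ± 0.707 of its counts in control and 97.8% ± 0.378 in siDDX5 cells (SD, n = 3 each).

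The exporter ferroportin, SLC40A1 (ENSG00000138449.10, chromosome 2, 189560579 to 189583758, minus strand), is the route by which iron leaves cells. It was low throughout, at 4.9, 4.63 and 4.37 CPM in control cells, against 6.72, 7.8 and 6.11 CPM in siDDX5 cells. The groups did not overlap. The log2 fold change was 0.57 (SE 0.18), a 1.48-fold higher level in CPM. For SLC40A1 the adjusted p by edgeR was 0.275, or 0.09 in the blocked fit. Scaled for length the value was smaller, at 0.43 with length-scaled TPM counts. With limma on log2 TPM it was 0.29 and 0.365 for pseudocounts of 1 and 0.1 TPM. Mean levels were 2.94 TPM in control and 3.83 TPM in siDDX5 cells.

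HMOX1 (ENSG00000100292.16, chromosome 22, 35380361 to 35394214, plus strand) encodes heme oxygenase, which frees iron from heme, and its level ranged widely over the replicate numbers. It stood at 24.9, 89.7 and 51.9 CPM in control cells, against 39, 149.4 and 59.5 CPM in siDDX5 cells. Replicate 2 was the highest and replicate 1 the lowest in both groups, and the groups overlapped. Within pairs the log2 ratios were 0.65, 0.74 and 0.2 for replicates 1, 2 and 3. Without the block the log2 fold change was 0.58 (SE 0.51, adjusted p 0.716 by edgeR), and with it 0.53 (SE 0.11, adjusted p 0.0486). Leaving out 1 library, the value without the block was -0.17 without siDDX5 replicate 2, 0.23 without control replicate 1, 0.92 without siDDX5 replicate 1 and 1.12 without control replicate 2.

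**Figure D4:**
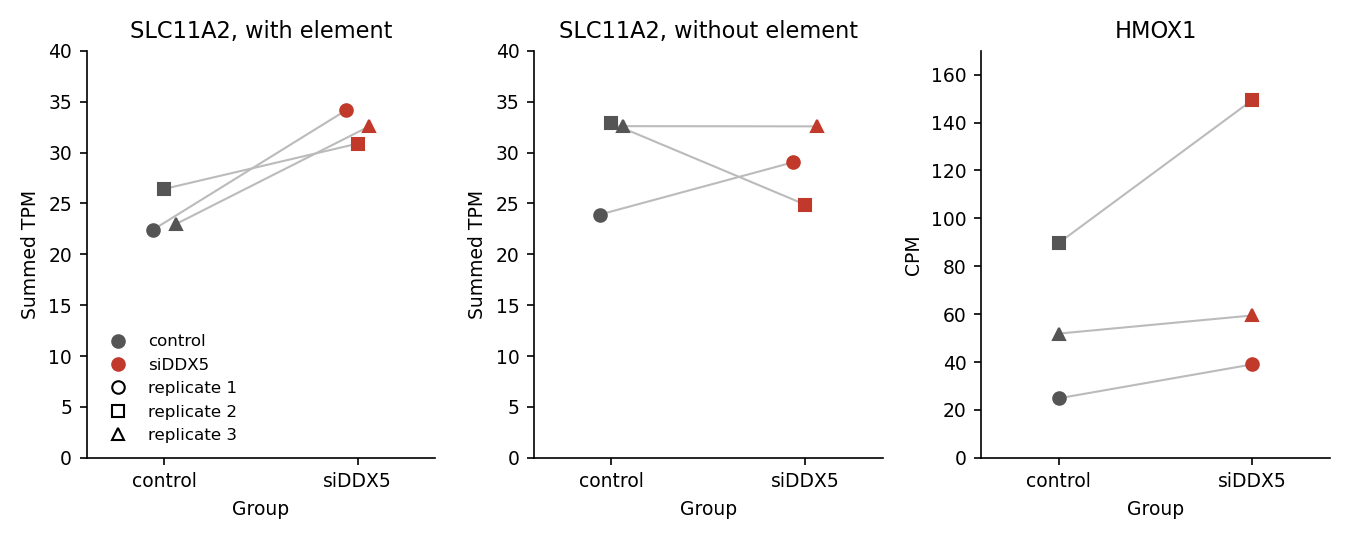
Summed TPM of SLC11A2 transcripts with and without the iron-responsive element, and CPM of HMOX1, in control (grey) and siDDX5 (red) libraries; grey lines join same-numbered libraries. The 3 siDDX5 libraries lie above the 3 control libraries only for SLC11A2 with the element, while for HMOX1 each line goes up from a different starting level.

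The chaperone PCBP1 (ENSG00000169564.6, chromosome 2, 70087454 to 70089203, plus strand), which delivers iron to ferritin, stood at 304.7, 300.1 and 280.2 CPM in control libraries. In siDDX5 libraries it stood at 314.3, 397.1 and 328.2 CPM. The groups did not overlap, and siDDX5 replicate 2 was highest, as for FTH1. PCBP1 had a log2 fold change of 0.23 (SE 0.12, adjusted p 0.491 by edgeR), and 0.12 without siDDX5 replicate 2.

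The genes of both iron regulatory proteins and of the ferritin receptor of autophagy overlapped between the groups in CPM. IREB2 (iron regulatory protein 2, ENSG00000136381.12, chromosome 15, 78437431 to 78501456, plus strand) was at 122.9 to 124.8 CPM in control and 119.8 to 143.1 CPM in siDDX5 libraries, a log2 fold change of 0.07 (SE 0.10). Without siDDX5 replicate 1 the IREB2 value was 0.003, and without siDDX5 replicate 3 it was 0.14. ACO1 (ENSG00000122729.18, chromosome 9, 32384603 to 32454769, plus strand), which is iron regulatory protein 1 and also the cytosolic aconitase, was at 68.8 to 74.7 CPM in control and 62.4 to 72 CPM in siDDX5 libraries, a log2 fold change of -0.10 (SE 0.10), or -0.05 without siDDX5 replicate 1. Scaled for length, the ACO1 groups did not overlap, at 27.9 to 29.3 TPM in control and 25.7 to 27.4 TPM in siDDX5 libraries. How often TPM ranges do not overlap over all genes was not counted. With limma on log2 TPM and a pseudocount of 1 TPM, the ACO1 value was -0.12 (adjusted p 0.791). NCOA4 (ENSG00000266412.5, chromosome 10, 46005088 to 46030714, minus strand), which carries ferritin to lysosomes for breakdown, was at 127.2 to 141.7 CPM in control and 126 to 136.5 CPM in siDDX5 libraries. Its log2 fold change was -0.004 (SE 0.10), and the sign turned under 5 of 15 other settings.

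The shares of the 2 main NCOA4 transcripts did not overlap between the groups, and how often that is so over all genes was not counted. The share of ENST00000585132.5 was 11.7%, 17.8% and 16.4% of the gene's counts in control libraries and 21%, 30.4% and 23.7% in siDDX5 libraries. ENST00000581486.5 went the other way, from 81% ± 3.65 to 72.6% ± 4.47 (SD, n = 3 each). By diffSpliceDGE in edgeR, 0 of the 6 members with at least 2 transcripts tested were called for transcript usage, without and with the block, and 0 had an unadjusted p under 0.05. Over all genes 1.57% were called, and 1.2% with the block.

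By Pearson's r of log2 CPM over the 6 libraries, among 10745 other protein-coding genes with at least 5 CPM, FTL was most like WLS (0.997), IPO13 (0.996) and MTIF3 (0.994). FTH1 was most like TMEM208 (0.999), MRPL52 (0.991) and RAB2A (0.99). TFRC was most like TPP1 (0.997), NDUFA5 (0.991) and ATP2C1 (0.991). The 6 points share groups and replicate numbers, and these values are a description. WLS differed far less than FTL, with a log2 fold change of -0.36 (SE 0.10). Among the 10 genes, the strongest r were 0.91 for FTH1 and PCBP1, -0.91 for FTL and SLC11A2, 0.90 for SLC40A1 and SLC11A2, 0.89 for SLC40A1 and PCBP1, 0.85 for FTH1 and HMOX1, and -0.84 for FTL and SLC40A1.

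A further 98 genes of iron handling were listed from general knowledge in 9 groups, with earlier results of these data known. Their values are a description, read from the same fit, and 87 of the genes were tested. None was called by edgeR without the block. There, 11 had an unadjusted p under 0.05, beside 1730 of all 15224 genes tested. DESeq2 called 5, beside 323 of all 15224. With the block 3 were called higher and 3 lower, against 1.14% and 1.45% of all genes. Their median log2 fold change was 0.02.

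In the group of uptake and iron reduction, 1 of 9 tested genes rose with the block and 0 fell. It was CYBRD1, a ferric reductase of the cell surface, at 195.2, 166.9 and 212.6 CPM in control cells, against 277.9, 296.9 and 265.4 CPM in siDDX5 cells, with no overlap. The log2 fold change of CYBRD1 was 0.55 (SE 0.12), and its adjusted p by edgeR was 0.103, or 0.0369 in the blocked fit. CYBRD1 was also called for transcript usage by diffSpliceDGE without the block (adjusted p 0.0123), but not with it (0.18). The lowest of the group at 5 CPM or more was MELTF, at -0.07, which ranged from -0.15 without control replicate 2 to -0.004 without control replicate 1.

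In heme transport and breakdown, 1 of 9 rose with the block and 0 fell. FLVCR2, a transporter of the same family as the heme exporter FLVCR1, was at 8.48, 9.39 and 9.11 CPM in control cells, against 14, 16.3 and 15.7 CPM in siDDX5 cells, with no overlap. The FLVCR2 log2 fold change was 0.77 (SE 0.14), and its adjusted p by edgeR was 0.0704, or 0.0131 in the blocked fit. Scaled for transcript length it was smaller, at 0.52 with length-scaled TPM counts and 0.43 and 0.48 with the limma settings. LRP1, a receptor that takes up the heme carrier hemopexin among many ligands, had the lowest value at 5 CPM or more, -0.38 (SE 0.17), or -0.23 without control replicate 3.

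In heme synthesis, 1 of 8 fell with the block. UROS, an enzyme of the porphyrin ring, went from 27.2 ± 5.66 to 17.9 ± 4.02 CPM (SD, n = 3 each), with groups that overlapped. UROS had a log2 fold change of -0.61 (SE 0.20), and its adjusted p by edgeR was 0.297, or 0.0379 in the blocked fit. CPOX, a later enzyme of the same pathway, had the highest value, 0.51 (SE 0.20), and did not pass. Without control replicate 2 the CPOX value was 0.30, and without control replicate 3 it was 0.705.

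In sensing and systemic control, 1 of 9 fell with the block. NEO1, which encodes neogenin, a receptor that also binds hemojuvelin, was at 57, 44.4 and 52.5 CPM in control cells, against 37.6, 27.5 and 31.7 CPM in siDDX5 cells, with no overlap. For NEO1 the log2 fold change was -0.67 (SE 0.15), and its adjusted p by edgeR was 0.118, or 0.00935 in the blocked fit. SMAD4 had the highest value, 0.04, and turned negative on the TPM scale.

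In cytosolic iron-sulfur assembly, 1 of 9 fell with the block. NDOR1, which passes electrons to the assembly factor CIAPIN1, went from 43.4 ± 2.19 to 30.4 ± 2.3 CPM (SD, n = 3 each) with no overlap. NDOR1 had a log2 fold change of -0.52 (SE 0.11), and its adjusted p by edgeR was 0.114, or 0.0259 in the blocked fit. CIAO2A had the highest value, 0.35 (SE 0.12).

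In the group of NRF2, BACH1 and ferroptosis genes, 1 of 14 rose with the block. SRXN1, an antioxidant enzyme that repairs peroxiredoxins, went from 36.9 ± 3.05 to 52.1 ± 6.89 CPM (SD, n = 3 each) with no overlap. SRXN1 had a log2 fold change of 0.50 (SE 0.13), and its adjusted p by edgeR was 0.188, or 0.0237 in the blocked fit. LPCAT3 had the lowest value, -0.24, and ranged from -0.38 without control replicate 2 to -0.08 without siDDX5 replicate 2.

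The 3 remaining groups held no call in either fit. The 21 genes of mitochondrial iron and iron-sulfur assembly had a median log2 fold change of 0.05, from -0.43 (FDXR) to 0.23 (FDX1). Without control replicate 1 the FDXR value was -0.20. Among 5 tested genes of chaperones, storage and export, those at 5 CPM or more lay between -0.27 (HERC2) and -0.02 (PCBP2, whose sign turned without control replicate 1 or siDDX5 replicate 3). The 3 tested genes among other messenger RNAs with reported iron-responsive elements were all below 0, from -0.27 (CDC42BPA) to -0.16 (PFN2). The values of HERC2 and CDC42BPA were larger in size without siDDX5 replicate 1, at -0.45 and -0.41, and HERC2 was at -0.16 without siDDX5 replicate 2.

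**Figure D5:**
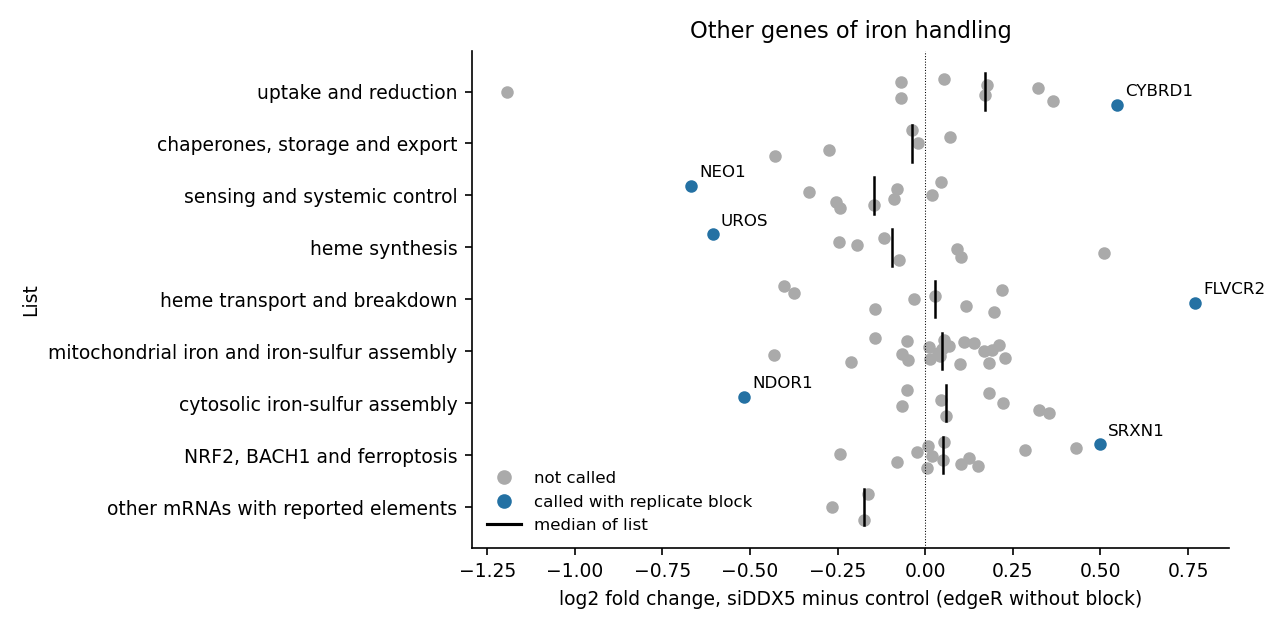
Log2 fold change (siDDX5 minus control, edgeR without block) of the 87 other iron handling genes tested, by group. Each point is a gene, black lines are group medians, and blue points are the 6 genes called with the replicate block.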

How the data were processed

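One table per library was deposited. Per the submitters' processing notes, bcl2fastq 2.20, FastQC 0.11.8, cutadapt 1.11 and kallisto 0.46.0 were used with GRCh38. The annotation release is not given in the sources used here. Estimated counts were deposited without normalization, with shared reads divided among transcripts. The deposited TPM are scaled for transcript length and library total.

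Transcripts (188753 per table) were joined to GENCODE 29 genes by identifier (169797), symbol (15315) or position between transcripts of 1 gene (890), and 2751 were left out. Estimated counts were summed per gene, rounded, filtered with filterByExpr, scaled by TMM (CPM) and tested in edgeR 4.0.16 under R 4.3.3 (glmQLFTest), the model holding the group alone. Calls are Benjamini-Hochberg adjusted p under 0.05 over all genes. The standard error is the log2 fold change divided by the square root of F. Transcript usage was tested with diffSpliceDGE and Simes p-values. DESeq2 1.42.0 and limma 3.58.1 served as alternatives.

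Same-numbered libraries deviated together (r = 0.21, 0.27 and 0.58 for replicates 1, 2 and 3 over 15224 genes), so fits with the replicate number as a block are given beside the others where a call or count changed. The titles give the numbers and do not say what they share.

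The members and lists were chosen with earlier results of these data known. Named genes were all 10 members, DDX5, the 6 highest ferritin pseudogenes, listed iron genes called in either fit or at either end of their group with at least 5 CPM, and the 3 genes most like FTL, FTH1 and TFRC. On simulated counts with 200 genes changed 2-fold, edgeR recovered 75% with 11 false calls among 15031 genes. With replicate effects planted it recovered 4.5% without and 75.5% with the block among 15019 genes. These effects were planted as fully shared by same-numbered libraries, so the gain from the block was built in. It does not show how far the real libraries are paired. DiffSpliceDGE recovered 18% of 200 switched genes among 10434.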

Additional observations from a re-analysis of the deposited data

How the results depend on the processing

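FTL stayed lower under all 16 alternatives run and kept its call under 6. It lost it with length-scaled TPM counts (-1.07, adjusted p 0.0992), limma-trend with a pseudocount of 1 TPM (-1.14, 0.0807) or 0.1 TPM (-1.14, 0.0893), genes joined by the primary assembly alone (-1.11, 0.051), which was added after the data were seen, and without any 1 library. The number of members called, 1, was 3 with the replicate block, 2 with the DESeq2 Wald test, and 0 with length-scaled TPM counts (1 at an unadjusted p under 0.05), both limma-trend settings (1 each) and the primary-assembly join (3). It was 0 in each fit without 1 library (3 to 5). Over all genes in those fits, 1244 to 2042 of 15393 to 15657 tested had an unadjusted p under 0.05. That number was 1446 of 15332 with length-scaled TPM counts and 1678 of 15095 with the primary-assembly join. With limma-trend it was 1272 and 1251 of 14872. Since the members were chosen on this contrast, nothing is read from their counts. Against 25 genes changed, 395 were called with the replicate block, 323 with DESeq2 and 136 with no filter, each including all 25. Length-scaled TPM gave 2, both among the 25, and either pseudocount of limma-trend gave 1 that was not among them. Without 1 library they ranged from 0 (edgeR without control replicate 1, where 1244 had an unadjusted p under 0.05, and without siDDX5 replicate 1, where 2042 had) to 15. The other iron genes called, 0, became 6 with the block, 5 with DESeq2 and 2 with no filter. They stayed at 0 in the other settings and without 1 library (7 to 15 at an unadjusted p under 0.05). Genes with changed transcript usage, 168, became 128 with the block, 383 when unfiltered and 39 where the mean had to reach 50 counts, and ranged from 212 to 440 without 1 library, the highest without siDDX5 replicate 1. The FTH1 to FTL ratio of siDDX5 over control ranged from 2.4 to 2.79 without 1 library.

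Signs turned for NCOA4 (0.003 with DESeq2 size factors and with DESeq2, 0.001 with the primary-assembly join, from -0.033 to 0.05 without 1 library), HMOX1 (-0.17 without siDDX5 replicate 2, 1.12 without control replicate 2), SMAD4 (-0.27 with length-scaled TPM counts, -0.31 and -0.32 with limma-trend) and PCBP2 (from -0.114 to 0.076 without 1 library). The cause was not tested. The replicate block changed no other call among the members than those of SLC11A2 and HMOX1. Standard errors do not hold the uncertainty of dividing reads among transcripts.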
